A study of Mus musculus with 25 samples.

Results

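The sirtuin family consists of 7 genes in mouse, Sirt1 to Sirt7, and all 7 were found by symbol among the 41388 gene identifiers counted in this series of 25 liver RNA-seq libraries. All 7 passed the filter on low values (more than 1 CPM, a read count scaled to library size, in at least 2 libraries) and were among the 14065 genes tested. Each library came from the liver of 1 male C57B/6J mouse, with an age of 20 weeks in the labels and a study length of 12 weeks. All mice were given an AAV8 virus. It was either the empty vector (EV) or one that carried NAMPT behind the thyroxine binding globulin promoter, which is active in hepatocytes. The groups were chow WT EV (n = 3), Western diet (WD) WT EV (n = 6), WD WT NAMPT (n = 6), WD LKO EV (n = 5) and WD LKO NAMPT (n = 5). The WT mice of the genotype comparison were littermates with floxed Sirt1 and no Cre. The LKO mice carried the same floxed allele with Albumin-cre, which the authors describe as removing the target in hepatocytes specifically. Whether other liver cells kept an intact Sirt1 was not checked here. The treatment text of the labels names SIRT1 as the vector insert, while the titles name NAMPT, and the titles were followed.

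Sirtuins are enzymes that use NAD to take acetyl or longer acyl groups off lysines in other proteins, and they release nicotinamide as they do so. NAMPT, the rate-limiting enzyme of the salvage route, turns that nicotinamide back into an NAD precursor, which is the biochemical link between the vector and this family. SIRT1, SIRT6 and SIRT7 act mainly in the nucleus, SIRT2 mainly in the cytosol, and SIRT3, SIRT4 and SIRT5 in mitochondria. In liver the family is best known for work on fasting metabolism, in which SIRT1 deacetylates PGC-1alpha and other regulators and SIRT3 deacetylates enzymes of fat oxidation.

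The 7 genes lie at 7 separate places in the genome (GRCm38), and each count covers every annotated exon of the gene. Sirt1 (ENSMUSG00000020063) spans chr10:63319005-63381704 on the minus strand, with 15 exon blocks and 5331 counted bases. Sirt6 (ENSMUSG00000034748), on the same chromosome and strand, spans chr10:81621785-81627797, with 8 blocks and 2785 bases. Sirt7 (ENSMUSG00000025138) spans chr11:120618372-120625240 on the minus strand, with 6 blocks and 5148 bases. These are the nuclear members.

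The cytosolic member Sirt2 (ENSMUSG00000015149) spans chr7:28766735-28788665 on the plus strand, with 16 blocks and 3568 bases. Of the mitochondrial members, Sirt3 (ENSMUSG00000025486) spans chr7:140863670-140882309 on the minus strand, with 8 blocks and 1570 bases. Sirt4 (ENSMUSG00000029524) spans chr5:115478010-115484725 on the minus strand, with 6 blocks and 2398 bases. Sirt5 (ENSMUSG00000054021) spans chr13:43370710-43395202 on the plus strand, with 8 blocks and 1367 bases. Several members share exonic bases with a neighbour. Sirt3 shares 152 of its bases with Psmd13 and 61 with Ric8a, both on the other strand, and Sirt7 shares 124 with Mafg on its own strand. The counts are described as of unambiguous reads, and whether strand was used is not given in the sources used here. The counts of these members are therefore uncertain in the shared bases.

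The upstream sequences differed in a motif of the circadian clock. The letters CACGTG, the E-box that clock proteins such as BMAL1 (Arntl) are known to bind, read the same on both strands. Among the RefSeq promoters (GRCm38.p6), 9 belonged to the 7 members, and in the 250 bases before the start site the motif was present only in that of Sirt1, where it occurred 2 times. Of all 32851 promoters, 6.02% held at least 1 copy in that window and 0.429% held 2 or more. Both sites are shown because they were the only matches among the members. Capitals mark the motif, and each line reads 5′ to 3′ on the minus strand.
Sirt1 site 1, chr10:63339133-63339162: gcggcgcccggcCACGTGacccggcgtgtt
Sirt1 site 2, chr10:63339061-63339090: ggaggggcgggtCACGTGacggggtttaaa
The windows end at RefSeq start sites, which need not be the ends of the spans given above. The Sirt1 window (chr10:63339036-63339285) lies inside its span, and the Sirt5 window (chr13:43365285-43365534) ends before its span. The match describes these letters alone, and binding was not measured.

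Total counts ran from 20166175 to 32937326 per library, of which the 7 members together held 3027 to 5483. Values are CPM after TMM scaling, with the standard deviation (SD) between libraries, and p-values measure the spread between these single-mouse libraries. The hepatocyte markers matched in the files (7 of 8) summed to between 49876 and 78938 CPM in every library. The least counted value behind any member was 49 reads, for Sirt6, so counting error weighs more on that gene than on Sirt2 or Sirt3, which had at least 950 and 766 reads.

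Per length, Sirt3 was the highest member of the family and Sirt6 the lowest. On the scale of CPM per kb of counted exon, Sirt3 reached 33.2 ± 6.67 (SD, n = 25) and Sirt2 14.1 ± 1.11. These were followed by Sirt5 at 7.61 ± 1.21 CPM per kb and Sirt7 at 5.76 ± 1.05 CPM per kb. Sirt4 at 2.62 ± 0.54, Sirt1 at 1.70 ± 0.20 and Sirt6 at 1.11 ± 0.24 CPM per kb were the low members. The ranges of Sirt2 (12.2 to 16.4 CPM per kb) and Sirt3 (17.9 to 47.5 CPM per kb) did not overlap over the 25 libraries, while those of Sirt5 (4.16 to 9.22) and Sirt7 (4.28 to 8.00) did. By this measure Sirt3 stood above 90.1% of the genes tested, and Sirt1 above 33.0%.

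**Figure D1:**
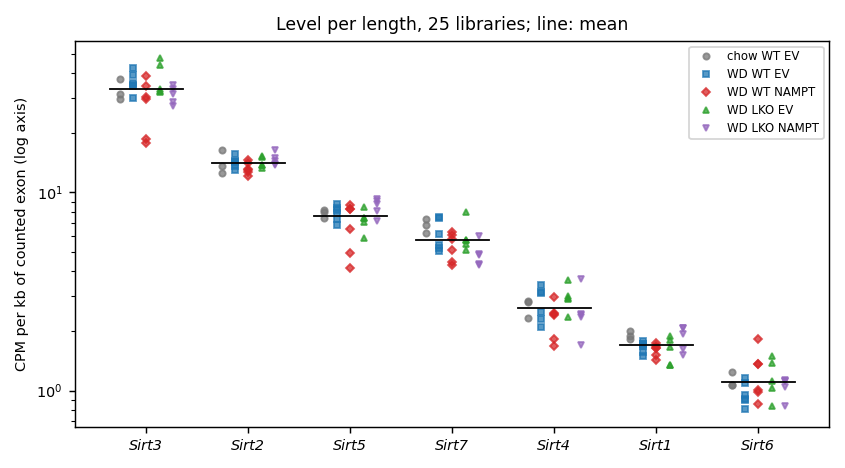
Level of each sirtuin in CPM per kb of counted exon (log axis), 1 point per library and a line at the mean of 25 libraries, with members in falling order. Sirt3 lies highest at a mean of 33.2 and Sirt6 lowest at 1.11 CPM per kb, and the groups overlap within each member, except that the chow libraries lie above those of WD WT EV and WD WT NAMPT for Sirt1 and above those of WD LKO NAMPT for Sirt7.

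The members also differed in how far they varied between mice. Sirt2 was the steadiest, with a highest library only 1.34 times the lowest. Sirt1 followed at 1.54 times and Sirt7 at 1.87 times. Sirt3 varied most, at 2.66 times, and Sirt4 (2.18), Sirt5 (2.21) and Sirt6 (2.25) lay between. The ratio of the highest to the lowest group mean stayed between 1.10 for Sirt2 and 1.39 for Sirt7. In each member, every step between neighbouring groups in the order of means was smaller than the larger of both SDs.

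Nampt, the vector's gene, was checked first. In WD WT EV, Nampt was 38.3, 49.2 and 54.1 CPM at its lowest, median and highest library, and in WD WT NAMPT it was 46.8, 58.8 and 77.8 CPM. In the LKO mice it was 46.0, 46.7, 56.5, 75.6 and 55.7 CPM with EV and 73.6, 83.5, 127, 62.1 and 53.9 CPM with NAMPT. The groups overlapped in both genotypes, although 5 of 6 WT and 4 of 5 LKO libraries with NAMPT lay above the EV median. NAMPT minus EV gave a log2 difference of 0.34 ± 0.16 (SE) in WT (limma adjusted p = 0.144) and 0.41 ± 0.16 in LKO (limma adjusted p = 0.403). With 1 library left out the WT value ran from 0.20 (WD WT NAMPT replicate 3) to 0.48 (WD WT NAMPT replicate 4), and the LKO value from 0.29 to 0.52. The sources used here do not give whether the counted exons match the vector's Nampt sequence, so the count may miss vector RNA.

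Sirt1, the gene targeted in the LKO mice, had about the same count in both genotypes. In WD WT EV it was 7.99, 9.04 and 9.53 CPM at its lowest, median and highest library. In WD LKO EV it was 7.16, 7.22, 8.81, 10.1 and 9.61 CPM, so that the LKO libraries lay on both sides of the WT range. The log2 difference was -0.07 ± 0.10 (limma adjusted p = 0.99), with a 95% interval from -0.28 to 0.14, which limits a difference in the whole-gene count to between 17.4% lower and 10.6% higher. With 1 library left out it ran from -0.12 to -0.0025. A count over all exons does not show whether a floxed stretch is missing, and which exons are floxed is not given in the sources used here. The count therefore does not check the genotype labels, and in bulk liver fewer cells of a type and less RNA per cell cannot be told apart. In WD WT NAMPT, Sirt1 was 7.62, 8.73 and 9.32 CPM at its lowest, median and highest library, and in WD LKO NAMPT it was 8.69, 8.09, 10.99, 10.3 and 11.1 CPM. The 3 highest LKO NAMPT libraries exceeded all WT NAMPT libraries and the other two fell within their range. That log2 difference was 0.19 ± 0.11 (limma adjusted p = 0.237), or 0.32 without WD LKO NAMPT replicate 2 and 0.08 with library size only.

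**Figure D2:**
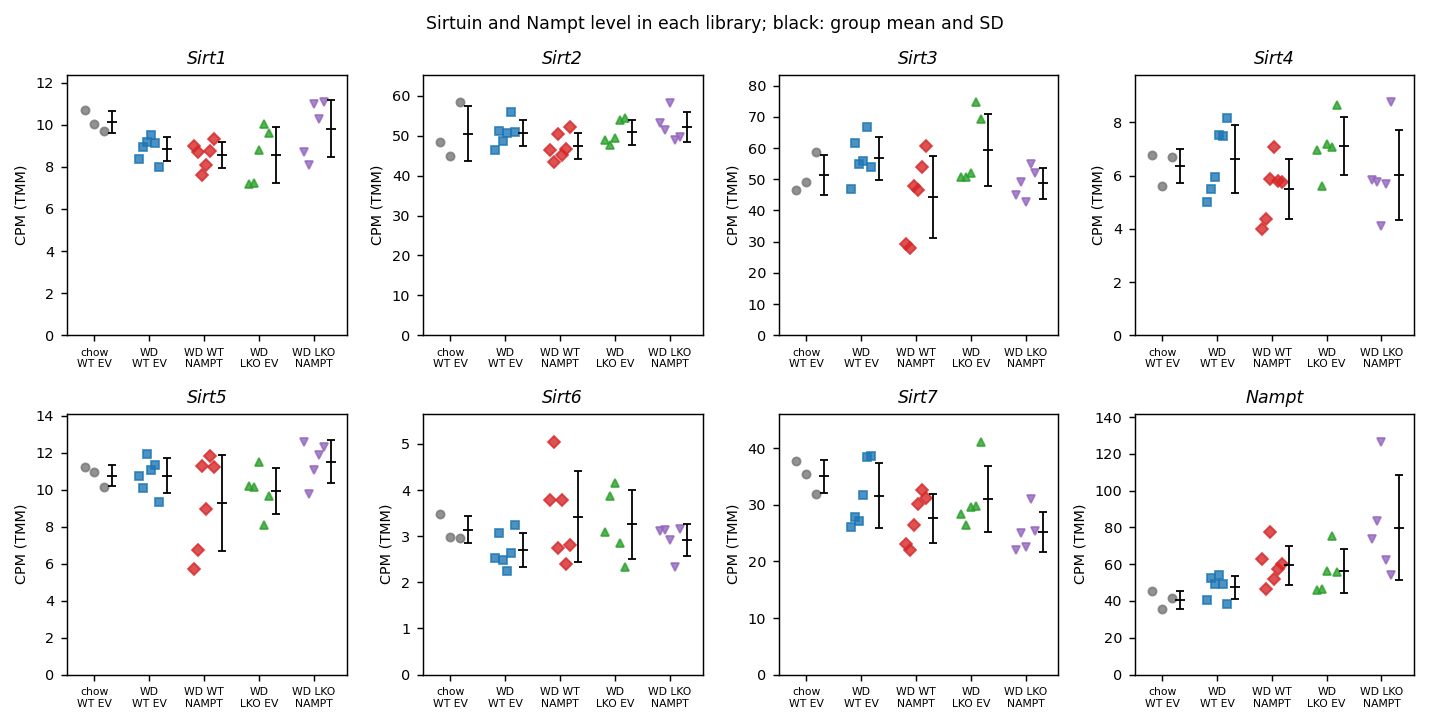
CPM after TMM scaling of each sirtuin and Nampt, 1 symbol per library, with the mean and SD of each group in black beside the symbols; every axis starts at 0. In the 5 comparisons tested the groups overlap in every panel except for Sirt1 between chow WT EV (9.70 to 10.7 CPM) and WD WT EV (7.99 to 9.53 CPM). A pair of WD WT NAMPT libraries is low for Sirt3 and Sirt5, and the same pair is lowest in that group for Sirt4 and Sirt7.

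The first comparison asked what the NAMPT vector did in WD WT liver. None of the 7 sirtuins was called at an adjusted p of 0.05 or less by limma, where 13.4% of all genes tested were. At an unadjusted p under 0.05 there was 1 member, Sirt3, against 30.3% of all genes, and 0 members had groups that did not overlap, against 0.96%. The edgeR quasi-likelihood test and DESeq2 also gave 0 called members and 1 at an unadjusted p under 0.05, and the edgeR exact test gave 0 of both. The values were negative for 6 members and positive for 1, with a median log2 difference of -0.11 against 0.00 for all genes. With library size alone as the scale, all genes moved by 0.15 (log2) in this comparison and 6 of the 7 members were positive. The sign turned for Sirt1, Sirt2, Sirt4, Sirt5 and Sirt7, each of which stayed below the median of all genes on that scale (0.16), while Sirt3 stayed negative and Sirt6 positive.

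Sirt3, the main mitochondrial deacetylase, had the largest difference. In WD WT EV it was 46.8, 55.3 and 66.9 CPM at its lowest, median and highest library. In WD WT NAMPT it was 29.3, 28.04, 47.8, 46.6, 54.1 and 60.5 CPM in replicates 1 to 6. Replicates 1 and 2 were the lowest of all 25 libraries, whereas replicate 4 lay just under the EV range and replicates 3, 5 and 6 inside it. The log2 difference was -0.33 ± 0.13 (limma adjusted p = 0.0836), with a 95% interval from -0.60 to -0.07. Without replicates 1 and 2, an alternative chosen after seeing the data, it was -0.20 (adjusted p = 0.319), and with 2 surrogate variables it was -0.00045 (limma adjusted p = 0.999). Leaving out single libraries gave values from -0.41 to -0.25, and the call was reached without WD WT EV replicate 1 (-0.39), WD WT NAMPT replicate 5 (-0.41) or WD WT NAMPT replicate 6 (-0.37).

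The other mitochondrial members shared the low pair. Sirt5, which removes succinyl, malonyl and glutaryl groups, was 9.33, 10.9 and 12.0 CPM at its lowest, median and highest EV library. In WD WT NAMPT it was 5.69, 6.77, 11.3, 8.96, 11.8 and 11.3 CPM, again lowest in replicates 1 and 2. NAMPT minus EV gave -0.16 ± 0.13 (log2) (limma adjusted p = 0.418), and -0.03 without those replicates. With no sample quality weights it was -0.29, and with 1 library left out it ran from -0.23 (WD WT NAMPT replicate 3) to -0.08 (WD WT NAMPT replicate 1). Sirt4, known for regulating glutamate dehydrogenase, was 5.02, 6.72 and 8.18 CPM at its lowest, median and highest EV library. In WD WT NAMPT it was 4.01, 4.39, 5.88, 7.09, 5.82 and 5.76 CPM. Its log2 difference was -0.10 ± 0.16 (limma adjusted p = 0.713), and -0.01 without replicates 1 and 2. With no sample quality weights it was -0.29, and with 1 library left out it ran from -0.21 (WD WT NAMPT replicate 4) to -0.03 (WD WT NAMPT replicate 1).

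Among the nuclear members, Sirt6 went the other way in the same libraries. Sirt6, known for repressing glycolytic genes and for DNA repair, was 2.25, 2.59 and 3.23 CPM at its lowest, median and highest EV library. In WD WT NAMPT it was 3.78, 5.05, 2.74, 3.78, 2.39 and 2.80 CPM, with the highest value of the series in replicate 2. NAMPT minus EV gave 0.24 ± 0.17 (log2) (limma adjusted p = 0.37), and 0.11 without replicates 1 and 2. Over the other settings it ran from 0.0079 (2 surrogate variables) to 0.38 (clock-gene score). Sirt7, which deacetylates histone H3 and acts in the nucleolus, was 26.03, 29.8 and 38.7 CPM at its lowest, median and highest EV library and 22.1, 28.3 and 32.6 CPM with NAMPT. Like the mitochondrial members, it was lowest in NAMPT replicates 1 and 2, at 23.1 and 22.1 CPM. In replicates 3 to 6 Sirt7 was 26.5 to 32.6 CPM. The groups overlapped, and the log2 difference was -0.12 ± 0.12 (limma adjusted p = 0.531), from -0.23 with the clock-gene score to 0.13 with 2 surrogate variables.

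Sirt2, the tubulin deacetylase of the cytosol, was 46.4, 50.8 and 56.0 CPM at its lowest, median and highest WD WT EV library and 43.4, 46.5 and 52.3 CPM with NAMPT. Its log2 difference of -0.10 ± 0.07 (limma adjusted p = 0.327) had the narrowest interval of the family, from -0.23 to 0.04. The Sirt1 log2 difference was -0.11 ± 0.10 (limma adjusted p = 0.504), with an interval from -0.32 to 0.11. It was -0.05 without WD WT NAMPT replicate 3, and that of Sirt2 was -0.04 without WD WT NAMPT replicate 4.

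Some cell-type markers were high in the low pair of libraries, and in part of the other NAMPT libraries. The 10 Kupffer cell and macrophage markers summed to 1142 and 1242 CPM in WD WT NAMPT replicates 1 and 2, and to 1086, 717, 588 and 312 CPM in replicates 3 to 6. The range was 325 to 485 CPM in WD WT EV. Of these markers 6 of 10 were called higher with NAMPT in WT and 0 lower, Itgam (log2 difference 1.87 ± 0.43) and Lyz2 (1.14 ± 0.26) most. Replicate 3, also high in macrophage markers, had Sirt3 at 47.8 CPM and Sirt5 at 11.3 CPM, both inside the WD WT EV range. Its Sirt3 was close to the lowest WD WT EV library (46.8 CPM) and under the WD WT EV median (55.3 CPM).

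The other marker lists varied in how many calls they held. The neutrophil markers, of which 3 of 7 could be tested, summed to 24.2 and 35.7 CPM in replicates 1 and 2, to 17.6, 18.7, 8.52 and 3.43 CPM in replicates 3 to 6 and to between 2.66 and 7.53 CPM in WD WT EV, with 2 called higher. The 9 stellate cell and fibroblast markers summed to 638 and 1079 CPM in replicates 1 and 2 and to 656, 633, 516 and 294 CPM in replicates 3 to 6, against 300 to 533 CPM in WD WT EV, with 5 called higher. The 7 lymphocyte markers tested gave 1 call higher (Cd2), the 7 endothelial markers 1 higher (Pecam1) and 1 lower (Clec4g), and the 5 cholangiocyte and 7 hepatocyte markers tested gave 0 calls. Hepatocyte markers summed to 68288 and 60412 CPM in replicates 1 and 2, inside or above the WD WT EV range of 52676 to 64591 CPM. The marker lists gave 0 calls without replicates 1 and 2, and the macrophage and neutrophil lists also gave 0 without replicate 3 alone. The endothelial list gave 0 calls without WD WT EV replicate 2 or WD WT NAMPT replicate 3, and the stellate list 1 without either. The stellate list gave 2 without WD WT EV replicate 6 or WD WT NAMPT replicate 2. The lymphocyte call was lost without WD WT EV replicate 2 or 6, or WD WT NAMPT replicate 1, 3 or 4. The part of these cells in the sirtuin values was not tested.

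**Figure D3:**
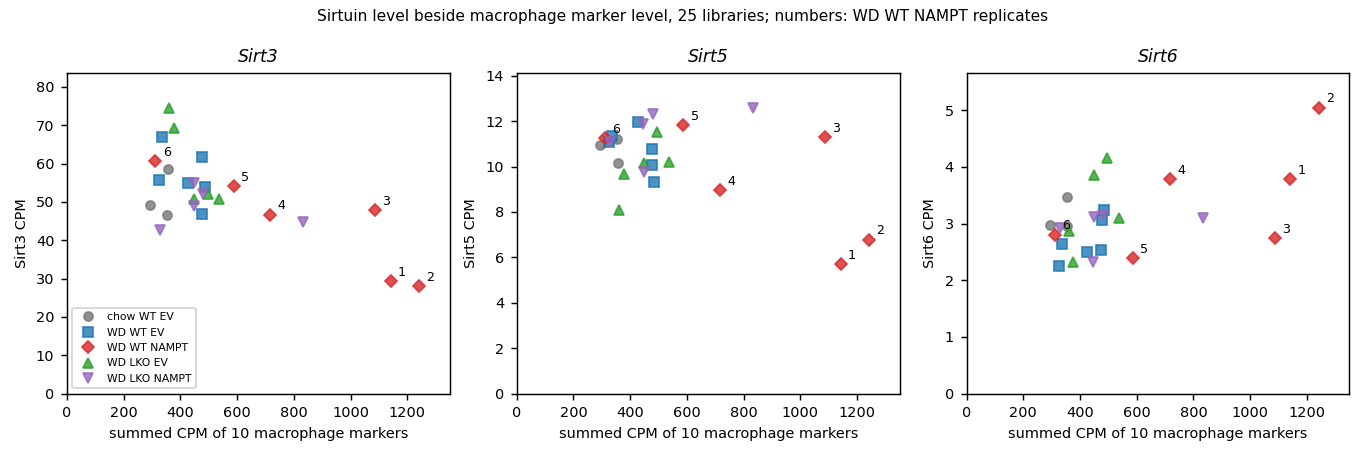
CPM of Sirt3, Sirt5 and Sirt6 (vertical axes from 0) against the summed CPM of 10 Kupffer cell and macrophage markers, 1 symbol per library, with the replicate numbers of WD WT NAMPT. Replicates 1 and 2 combine the highest marker sums (1142 and 1242 CPM) with the lowest Sirt3 and Sirt5, while replicate 3 at 1086 CPM has Sirt3 and Sirt5 inside the range of the other libraries.

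Of the gene lists around the family, the mitochondrial one had the most calls in WT. Of 18 mitochondrial sirtuin substrates and pathway enzymes, 7 were called lower with NAMPT and 1 higher, where 5.77% and 7.67% of all genes were. The median log2 difference of the list was -0.24, against 0.00 for all genes. The single call higher was Acss1, a mitochondrial acetyl-CoA synthetase, at 1.90 ± 0.54, from 0.21 to 0.76 CPM. Hadhb (-0.39), Acadm (-0.43) and Hadha (-0.24) of fat oxidation, Glud1 (-0.30), Sod2 (-0.25) and Atp5a1 (-0.23) were among the calls lower. Without replicates 1 and 2 the list had 0 calls in either direction, and with 1 library left out at a time between 1 and 11 were called lower, with 1 left without WD WT NAMPT replicate 3, 2 without WD WT EV replicate 2 or 6, 3 without WD WT NAMPT replicate 2 and 4 without WD WT NAMPT replicate 1. No call higher was left without WD WT EV replicate 2 or 6, or WD WT NAMPT replicate 2, 3 or 4.

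The remaining lists had fewer calls in this comparison. Of 18 nuclear substrates, partners and regulators of SIRT1, 2 were called higher, the SIRT1 inhibitor Ccar2 (log2 difference 0.34 ± 0.09) and the NF-kB subunit Rela (0.25 ± 0.08), and 0 lower. Of 17 tested genes of NAD synthesis, 1 was called higher, Acmsd (1.06 ± 0.30), which diverts the tryptophan route away from NAD. Another 4 were called lower, led by Kmo of the kynurenine route (-0.44 ± 0.12), and including Nmnat1 (-0.29 ± 0.10), which makes nuclear NAD. Of 13 tested NAD consumers and clearance genes, Parp14 was called higher (0.74 ± 0.18). The 11 zinc-dependent histone deacetylases, which remove acetyl groups without NAD, and the 10 lysine acetyltransferases, which add them, gave 0 limma calls, with 1 at an unadjusted p under 0.05 in each. These lists gave 0 calls without replicates 1 and 2, and the nuclear SIRT1 and NAD synthesis lists also gave 0 without WD WT EV replicate 2 or WD WT NAMPT replicate 3 alone. The NAD consumers gave 0 without WD WT NAMPT replicate 3.

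The second comparison was the NAMPT vector in WD LKO liver. No sirtuin was called by limma, where 0.00711% of all genes were (1 gene), and 0 members had an unadjusted p under 0.05, against 9.63% of all genes. Groups did not overlap in 0 members and in 1.15% of all genes. The edgeR quasi-likelihood test and DESeq2 called 0 and had 1 member (Sirt7) at an unadjusted p under 0.05, and the edgeR exact test called 0 and had 2. Sirt7 was 28.3, 26.4, 29.6, 29.7 and 41.2 CPM with EV and 22.1, 25.02, 22.5, 31.0 and 25.3 CPM with NAMPT. Of the NAMPT libraries, 4 of 5 lay under every EV library. The log2 difference was -0.25 ± 0.12 (limma adjusted p = 0.524), with an interval from -0.50 to 0.00, and it was -0.15 without WD LKO EV replicate 5.

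Sirt3 in LKO liver was 50.6, 50.8, 52.0, 74.6 and 69.2 CPM with EV and 44.8, 49.0, 42.7, 54.8 and 51.9 CPM with NAMPT. EV replicates 4 and 5 were the highest of the series, and replicates 1, 2 and 3 lay between the lowest and highest NAMPT libraries. NAMPT minus EV gave -0.21 ± 0.13 (log2, limma adjusted p = 0.657). Sirt5 was 10.2, 10.2, 11.5, 8.08 and 9.65 CPM with EV and 12.6, 9.77, 11.1, 11.9 and 12.3 CPM with NAMPT. Its log2 difference was 0.14 ± 0.13 (limma adjusted p = 0.773). For Sirt1 the log2 difference was 0.15 ± 0.10, for Sirt2 0.02 ± 0.07, for Sirt4 -0.17 ± 0.16 and for Sirt6 -0.17 ± 0.17, and all these groups overlapped. With 1 library left out, Sirt6 ran from -0.30 (WD LKO EV replicate 5) to -0.0063 (WD LKO EV replicate 3) and Sirt4 from -0.33 (WD LKO NAMPT replicate 5) to -0.11 (WD LKO EV replicate 5). Sirt1 ran from 0.08 (WD LKO EV replicate 1) to 0.27 (WD LKO NAMPT replicate 2), Sirt5 from 0.08 (WD LKO EV replicate 4) to 0.26 (WD LKO NAMPT replicate 2), and Sirt3 was -0.13 without WD LKO EV replicate 4 or 5. The surrounding gene lists gave 0 limma calls in this comparison, with between 0 and 3 genes per list at an unadjusted p under 0.05.

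The third comparison was LKO against WT with the NAMPT vector. No sirtuin was called by limma, where 7.96% of all genes were, and 0 members had an unadjusted p under 0.05, against 28.6%. The edgeR quasi-likelihood test and DESeq2 gave 0 calls and 1 member (Sirt5) at an unadjusted p under 0.05, and the edgeR exact test 0 of both. It shares the WD WT NAMPT libraries with the first comparison. For Sirt5 the log2 difference was 0.22 ± 0.13 (limma adjusted p = 0.262), and 0.09 without WD WT NAMPT replicates 1 and 2 but 0.38 with no sample quality weights. For Sirt3 it was 0.14 ± 0.14 (limma adjusted p = 0.521), and -0.01 without them. Sirt2 was above the WT NAMPT median in 5 of 5 LKO libraries, and Sirt6 below it in 5 of 5, with log2 differences of 0.11 ± 0.07 and -0.13 ± 0.18, the second moving to -0.01 without those replicates. Sirt4 (0.09 ± 0.17) and Sirt7 (-0.13 ± 0.13) overlapped throughout. With 1 library left out, Sirt2 ran from 0.05 to 0.13, Sirt3 from 0.05 to 0.22 and Sirt5 from 0.13 to 0.34. Sirt4 ran from -0.07 to 0.19, Sirt6 from -0.23 to -0.06 and Sirt7 from -0.20 to -0.07.

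Of the mitochondrial list, 6 of 18 genes were called higher in LKO NAMPT than in WT NAMPT and 0 lower, where 4.18% and 3.78% of all genes were. Hadhb, of fat oxidation, had a log2 difference of 0.59 ± 0.11. It was also called lower with NAMPT in WT, and the comparisons share those libraries. The nuclear SIRT1 list gave 1 call lower (Rela, -0.31 ± 0.09) and the histone deacetylases 1 higher (Hdac11, 0.45 ± 0.12). NAD synthesis gave 2 higher (Nadk2, 0.45 ± 0.10, and Kmo, 0.41 ± 0.12). The acetyltransferases and NAD consumers gave 0 calls, with 1 gene each at an unadjusted p under 0.05. Macrophage markers gave 3 calls lower, led by Itgam (-1.27 ± 0.39), stellate markers 1 (Pdgfrb), neutrophil markers 1 (Csf3r) and cholangiocyte markers 1 (Sox9). Clock genes gave 2 higher, Hlf among them. All these lists gave 0 calls without WD WT NAMPT replicates 1 and 2, and also 0 without WD LKO NAMPT replicate 2 or 5 alone. Without WD WT NAMPT replicate 2 or 3 alone the macrophage, neutrophil, nuclear SIRT1, histone deacetylase, NAD synthesis and clock lists gave 0 calls, and the mitochondrial list gave 3 and 2. The clock and histone deacetylase lists also gave 0 without WD WT NAMPT replicate 1, the clock and nuclear SIRT1 lists without replicate 4, and the cholangiocyte list without replicate 2 or 4. Without WD LKO NAMPT replicate 3 only the mitochondrial list (4) and NAD synthesis (1) had calls.

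The fourth comparison, LKO against WT with EV, was the one in which Sirt1, Sirt2, Sirt3 and Sirt7 differed least. No sirtuin was called by limma, where 0.00711% of all genes were (1 gene), and 0 had an unadjusted p under 0.05 by limma, either edgeR test or DESeq2, against 6.33% of all genes by limma. Sirt2, Sirt3 and Sirt7 had log2 differences of 0.00 ± 0.06, 0.01 ± 0.13 and 0.00 ± 0.12. Their 95% intervals limited a difference to 9.34% for Sirt2, 20.7% for Sirt3 and 17.8% for Sirt7 on the higher side. Sirt6 had the largest value, at 0.28 ± 0.17 (limma adjusted p = 0.88), with 3.10, 3.86, 4.15, 2.86 and 2.32 CPM in LKO against 2.25 to 3.23 CPM in WT. It was 0.12 without WD LKO EV replicate 3. Sirt4 (0.16 ± 0.16) and Sirt5 (-0.08 ± 0.13) overlapped between the genotypes. With 1 library left out, Sirt4 ran from 0.10 to 0.25 and Sirt5 from -0.16 to -0.01. The surrounding lists gave 0 limma calls, with between 0 and 3 genes per list at an unadjusted p under 0.05.

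The interaction, which is the log2 difference made by NAMPT in LKO minus that in WT, was tested directly. No sirtuin was called by limma, where 0.00711% of all genes were (1 gene), and 0 members had an unadjusted p under 0.05, against 21.2%. The edgeR quasi-likelihood test had 1 (Sirt5) and DESeq2 0, each with 0 calls. The largest values were -0.41 ± 0.25 for Sirt6 (limma adjusted p = 0.342) and 0.30 ± 0.18 for Sirt5 (limma adjusted p = 0.341). Their 95% intervals ran from -0.92 to 0.10 and from -0.07 to 0.68. Without WD WT NAMPT replicates 1 and 2 they were -0.29 and 0.16. Over all other settings Sirt6 reached -0.66 (replicate block) and Sirt5 0.50 (no sample quality weights), and Sirt6 was -0.25 without WD LKO EV replicate 3. For Sirt1 the interaction was 0.25 ± 0.15 (limma adjusted p = 0.316), 0.25 without those libraries, 0.11 with library size only, and from 0.18 (WD LKO EV replicate 1) to 0.38 (WD LKO NAMPT replicate 2) with 1 library left out. Of the mitochondrial list, 11 of 18 genes had an unadjusted p under 0.05 for the interaction and 0 were called.

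The fifth comparison was WD against chow in WT EV mice, the only comparison in which any member was separated by group. No sirtuin was called by limma, where 22% of all genes were, and 0 members had an unadjusted p under 0.05 by limma, either edgeR test or DESeq2, against 35.1% of all genes by limma. Sirt1 was 10.7, 10.02 and 9.70 CPM on chow and 8.35, 8.95, 9.18, 9.53, 9.13 and 7.99 CPM on WD. Every WD library lay under every chow library, as in 16.1% of all genes in one direction or the other. The log2 difference was -0.21 ± 0.11 (limma adjusted p = 0.172), with an interval from -0.42 to 0.01. With 2 surrogate variables it was -0.11. For Sirt7 it was -0.23 ± 0.12 (limma adjusted p = 0.176), or -0.13 with 2 surrogate variables and -0.14 without chow replicate 1. It was larger, and called, with the replicate block (-0.48, limma adjusted p = 0.00288) and the clock-gene score (-0.58, limma adjusted p = 0.0137). Sirt7 was 37.7, 35.4 and 31.99 CPM on chow and 26.03, 27.8, 27.1, 31.8, 38.4 and 38.7 CPM on WD. The WD libraries of Sirt7 fell into low and high sets, and replicates 7 and 8 exceeded all chow libraries.

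Sirt3 was 46.5, 49.1 and 58.6 CPM on chow and had a log2 difference of 0.21 ± 0.13 between diets (limma adjusted p = 0.273). This was 0.08 without chow replicate 1 and 0.12 without chow replicate 2. With 2 surrogate variables it was 0.39 and called (limma adjusted p = 0.00394). With the replicate block it was -0.0025 and with the clock-gene score -0.21. Sirt6 had -0.20 ± 0.19, Sirt2 0.08 ± 0.07, Sirt4 0.02 ± 0.17 and Sirt5 -0.04 ± 0.13, and all overlapped. Of the surrounding lists, the nuclear SIRT1 list had 2 calls higher and 3 lower, with Srebf1 (1.63 ± 0.19) and Acss2 (-1.19 ± 0.27) furthest. Srebf1 drives fat synthesis, and Acss2 makes acetyl-CoA from acetate outside mitochondria. NAD synthesis had 2 higher and 4 lower, with Acmsd (-1.81 ± 0.30) and Afmid (-0.88 ± 0.22) furthest. The mitochondrial list had 2 higher and 1 lower, with Cps1 (-1.22 ± 0.25) furthest. NAD consumers had 1 higher and 2 lower (Aox3, -0.94 ± 0.18, and Nnmt, -0.87 ± 0.28), the histone deacetylases 0 and 1 (Hdac1, -0.37 ± 0.10) and the acetyltransferases 0 and 2 (Kat6b, -0.36 ± 0.12, and Kat6a, -0.31 ± 0.07). In all genes 10.1% were higher and 12% lower. With 1 library left out at a time the nuclear SIRT1 list had between 1 and 3 calls lower and NAD synthesis between 1 and 5, with the fewest in both without chow replicate 2. The 2 NAD synthesis calls higher were lost without chow replicate 1 or 2. Without chow replicate 2 the NAD consumers, histone deacetylases and acetyltransferases gave 0 calls, and without chow replicate 1 the histone deacetylases gave 0 and the acetyltransferases 1.

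Diet and clock state moved together. Arntl was 37.4, 37.4 and 27.6 CPM on chow and between 1.56 and 18.1 CPM in the 22 WD libraries, and Dbp, a clock output gene, was 0.62, 1.25 and 5.13 CPM on chow and between 8.79 and 63.9 CPM on WD. Of 17 clock genes, 6 were called higher and 5 lower on WD. These counts were 0 and 2 without chow replicate 2, and 1 and 2 without chow replicate 1. In WD WT EV, Dbp was 8.79 to 14.1 CPM in replicates 1, 2 and 4 and 36.4 to 51.3 CPM in replicates 6, 7 and 8. Sirt7 was 26.03 to 27.8 CPM in replicates 1, 2 and 4 and 31.8 to 38.7 CPM in replicates 6, 7 and 8. WD LKO EV and WD WT NAMPT had the same order. In WD LKO EV, Dbp was 11.4 and 15.5 CPM and Sirt7 28.3 and 26.4 CPM in replicates 1 and 2. In its replicates 3 to 5 they were 42.8 to 62.1 and 29.6 to 41.2 CPM. In WD WT NAMPT, Dbp was 29.5 and 24.8 CPM and Sirt7 23.1 and 22.1 CPM in replicates 1 and 2. In its replicates 3 to 6 they were 45.6 to 63.9 and 26.5 to 32.6 CPM. In WD LKO NAMPT the order was not the same, with Dbp at 47.7 to 63.9 CPM and Sirt7 at 22.1 to 25.02 CPM in replicates 1, 2 and 3, and Dbp at 21.8 and 27.8 CPM and Sirt7 at 25.3 and 31.0 CPM in replicates 5 and 4. The chow libraries combined the lowest Dbp with Sirt7 at 31.99 to 37.7 CPM. Clock genes were also called in WT with NAMPT, with 6 lower and 0 higher, and Arntl (-1.99 ± 0.44) and Npas2 (-1.98 ± 0.64) furthest. The calls lower were 0 without WD WT NAMPT replicate 3 or without replicates 1 and 2, 1 without WD WT EV replicate 2, 2 without WD WT EV replicate 6 or WD WT NAMPT replicate 2, and 3 without WD WT NAMPT replicate 4. With a score over the clock genes as covariate, Sirt7 had a log2 difference of -0.58 between diets (limma adjusted p = 0.0137), and Sirt3 one of -0.44 for NAMPT in WT (limma adjusted p = 0.0117), so both were called. With 2 surrogate variables the latter was -0.00045 (limma adjusted p = 0.999). The same covariate turned the Sirt3 difference between diets from 0.21 to -0.21. The hour of tissue collection is not given in the sources used here, and diet and clock state cannot be told apart. Marker calls between diets were 2 higher for macrophages, 2 higher for stellate cells, 1 higher for lymphocytes, 1 higher and 1 lower for endothelium, 3 lower for hepatocytes and 0 for neutrophils and cholangiocytes. Without chow replicate 1 or 2 the macrophage, lymphocyte and endothelial lists gave 0 calls and the stellate list 1.

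**Figure D4:**
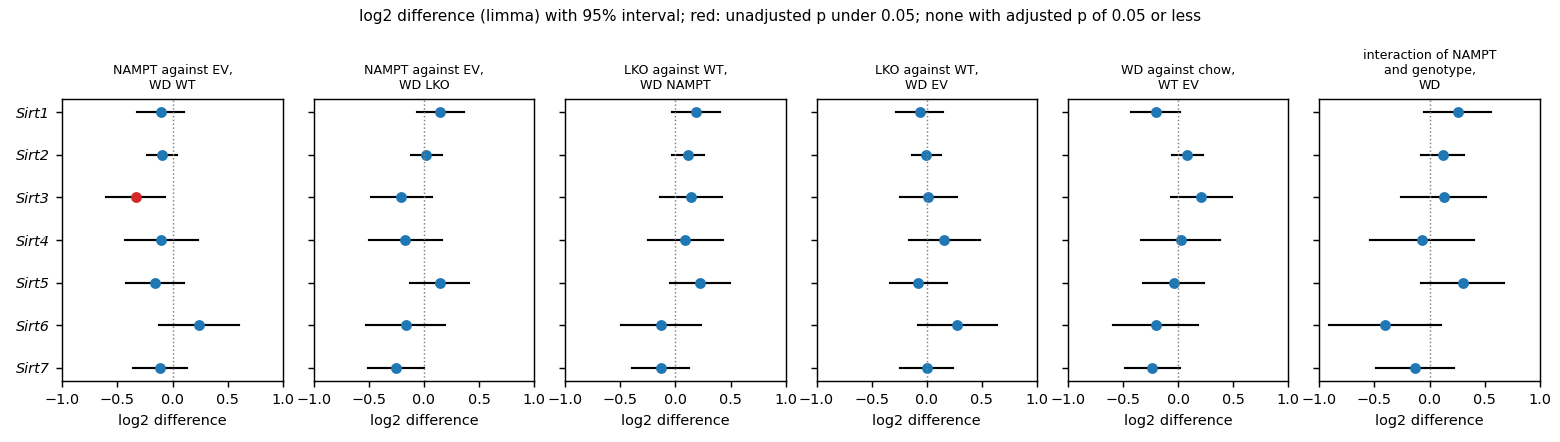
log2 difference of each sirtuin (point) with its 95% interval (line) from limma in the 5 group comparisons and the interaction, on 1 common axis. The Sirt3 interval for NAMPT in WD WT (-0.60 to -0.07, red) is the only one that leaves out 0, its adjusted p is 0.0836, and the intervals of Sirt2 are the narrowest.

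Across the 25 libraries some members varied together. The correlations that follow are of log2 CPM over libraries that share groups, scaling and depth, and they are given as descriptions. Sirt3 went with Sirt4 (Pearson's r = 0.67) and Sirt7 (0.63), and Sirt4 went with Sirt7 (0.65). Sirt6 went against Sirt3 (-0.63) and Sirt5 (-0.53). For deviations from the group means, Sirt3 and Sirt6 had r = -0.68, Sirt3 and Sirt7 0.65, and Sirt4 and Sirt7 0.67. Sirt1 had no r above 0.31 with any other member. The rank correlation of Sirt3 and Sirt5 was 0.10 where Pearson's r was 0.50. Nampt had r = 0.44 with Sirt2, -0.48 with Sirt7 and -0.06 with Sirt3, and 0.62, -0.10 and 0.19 for deviations from the group means.

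**Figure D5:**
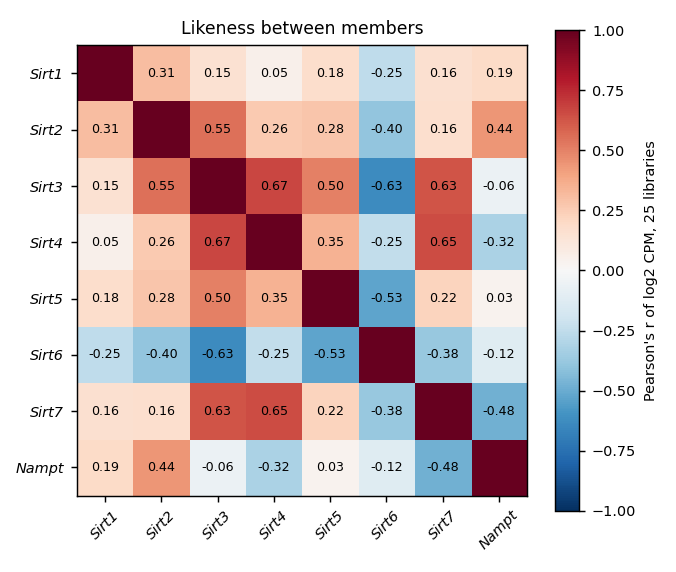
Pearson's r of log2 CPM between each pair of sirtuins and Nampt over 25 libraries, with red for positive and blue for negative values. The largest positive values join Sirt3, Sirt4 and Sirt7 (0.63 to 0.67), and Sirt6 is negative with every other gene shown.

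The genes most like each member by Pearson's r were sought among 12557 genes of average log2 CPM of at least 0. For Sirt3 they were Asgr1 (r = 0.93), a hepatocyte receptor for desialylated glycoproteins, Akr7a5 (0.92) and the fat oxidation enzyme Acaa2 (0.91). Akr7a5 (0.75) was also among those of Sirt4, with Hpn (0.76) and Bphl (0.76). The WT mice on WD had an Asgr1 level of 324 ± 26.9 (EV) and 256 ± 59.3 (NAMPT) CPM (SD, n = 6 each). For Sirt7 they were Esrp2 (0.87), an epithelial splicing factor, Dyrk2 (0.84) and 1300017J02Rik (0.84). For Sirt2 they were Dmac2 (0.81), the xenobiotic receptor Nr1i2 (0.81) and Tsc1 (0.80). By rank correlation the nearest genes were others for Sirt2 (Selenoo, Gpat4 and Idh3b) and for Sirt4 (Zfp763, Supt4a and Naprt).

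Sirt6 was most like Sdad1 (0.82), Cplane1 (0.70) and Slc9a9 (0.70), and Sirt1 was most like Wbp4 (0.80), the endoplasmic reticulum chaperone Hsp90b1 (0.71) and Mrps22 (0.69). Sirt5 was most like Dlst (0.79), a subunit of the 2-oxoglutarate dehydrogenase complex, Itm2b (0.79) and Bpnt1 (0.78), but rank correlations with these were 0.38, 0.42 and 0.53. The share of compared genes with Pearson's r above 0.5 was 12.0% for Sirt3 and 2.57% for Sirt6. By rank correlation these shares were 6.32% and 1.43%.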

How the data were processed

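Poly-A liver RNA was sequenced from 25 mice. The authors aligned single-end reads to GRCm38 with STAR and counted reads per gene with featureCounts; the submitters' processing notes give versions 2.5.1a and 1.4.6-p5. The deposited tables hold raw counts per gene, with CPM and RPKM values that the authors derived from them. Recomputed values differed by at most 5.9e-14 (relative), so only the counts were used.

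Symbols came from GENCODE (GRCm38), which lists 40254 of 41388 identifiers. Genes above 1 CPM in at least 2 libraries were kept, 4 ribosomal RNA genes were left out, and counts were scaled with TMM (edgeR 4.0.16). They were fitted with voomWithQualityWeights (limma 3.58.1, R 4.3.3), with 1 mean per group over all libraries and no covariate. P-values were adjusted over 14065 genes (Benjamini-Hochberg) and called at 0.05 or less. Log2 CPM used a pseudocount of 0.5. Intervals are 95%, and standard errors (SE) come from limma. No 2 libraries of a group were copies (smallest chi-square per degree of freedom 15.3).

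The members and gene lists were chosen with earlier results of these data known. In every comparison the rule named all members, Nampt, the 2 called genes of each list with the largest change, and the 3 genes most like each member; other list genes given were chosen after their values were seen, and some genes the rule named are not reported here. The alternatives were both edgeR tests, DESeq2 1.42.0, other size factors and filters, no quality weights, only the groups compared, the replicate block, 2 surrogate variables (sva 3.50.0), a clock-gene score, and 1 library left out. The procedure was tested on simulated data. Replicates are separate mice.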

Additional observations from a re-analysis of the deposited data

Results flagged for a closer look

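Of 32 sets of libraries examined (7 sirtuins and Nampt in the 4 Western diet groups), 2 held a library whose distance from the nearest other was above Dixon's 95% critical value; chance flags about 1 in 20 such sets. In WD LKO EV, replicate 5 had Sirt7 at 41.2 CPM, with the other 4 libraries between 26.4 and 29.7 CPM (gap over range 0.776, critical value 0.71). In WD LKO NAMPT, replicate 4 had Sirt6 at 2.33 CPM, with the other 4 between 2.92 and 3.16 CPM (gap over range 0.718, critical value 0.71). The pair of low Sirt3 and Sirt5 libraries in WD WT NAMPT did not pass this criterion, which looks at 1 library at a time. No interaction between NAMPT and genotype was called for a sirtuin.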

How the results depend on the processing

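The count of called sirtuins was 0 in every comparison and became 1 in a few alternatives. For NAMPT in WD WT it was 1 with a clock-gene score as covariate (Sirt3), and between 0 and 1 with 1 library left out (Sirt3 without WD WT EV replicate 1, WD WT NAMPT replicate 5 or WD WT NAMPT replicate 6). For WD against chow it was 1 with 2 surrogate variables (Sirt3, log2 difference 0.39, adjusted p = 0.00394), 1 with the clock-gene score (Sirt7, -0.58, adjusted p = 0.0137) and 1 with the replicate block (Sirt7, -0.48, adjusted p = 0.00288). Of the member values, 556 of 560 in the other settings and 522 of 525 with 1 library left out stayed without a call; the sign changed in 48 and 28. Nampt in WD WT was called with library size only (0.50, adjusted p = 0.0316). The count over all genes for NAMPT in WD WT was 1890, and ran from 27 with 2 surrogate variables to 2844 without WD WT NAMPT replicate 6; it was 428 with the edgeR quasi-likelihood test, 328 with the exact test and 37 without WD WT NAMPT replicates 1 and 2, an alternative chosen after seeing the data. For LKO against WT with NAMPT it was 1120, and ran from 0 without WD LKO NAMPT replicate 2 to 2290 without WD WT NAMPT replicate 6, with 5 without WD WT NAMPT replicates 1 and 2. For WD against chow it was 3101, and ran from 834 without chow replicate 2 to 3842 with the replicate block. In the other 3 tests it was 1, and reached 16 (NAMPT in LKO, edgeR exact test), 37 (LKO against WT with EV, edgeR exact test) and 677 (interaction, without WD LKO NAMPT replicate 1). The causes were not tested.

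Most reversed log2 differences were near 0. With library size only they were 0.044 (Sirt1), 0.054 (Sirt2), 0.064 (Sirt4), 0.019 (Sirt5) and 0.039 (Sirt7) for NAMPT in WT, -0.0033 (Sirt2) and -0.035 (Sirt4) for LKO against WT with NAMPT, 0.025 (Sirt2) and 0.031 (Sirt7) with EV, -0.017 (Sirt4) for diet, and -0.028 (Sirt2), -0.030 (Sirt3) and -0.091 (Nampt) for the interaction. That scaling moved the median of all genes by 0.15, -0.11 and -0.14 in NAMPT in WT, LKO against WT with NAMPT, and the interaction. With 2 surrogate variables they were 0.012 (Sirt1), 2.1e-05 (Sirt4) and 0.13 (Sirt7) for NAMPT in WT, 0.017 (Sirt2) and 0.040 (Sirt7) for LKO against WT with EV, 0.016 (Sirt5) for diet, and -0.056 (Sirt3) and -0.012 (Nampt) for the interaction. With the clock-gene score they were -0.013 (Sirt2) for NAMPT in LKO, -0.025 (Sirt3) for LKO against WT with EV, and -0.10 (Sirt2), -0.21 (Sirt3), -0.24 (Sirt4), 0.058 (Sirt6) and -0.15 (Nampt) for diet. Without WD WT NAMPT replicates 1 and 2 they were -0.0078 (Sirt3) and -0.012 (Sirt4) for LKO against WT with NAMPT and -0.021 (Sirt3) for the interaction.

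For LKO against WT with EV, Sirt2 turned to 0.0066 with DESeq2, 0.0062 with the edgeR quasi-likelihood test, 0.0059 with the exact test, 0.013 with no filter, 0.0065 with no quality weights and 0.0011 with upper-quartile size factors. Sirt7 there turned to 1.4e-05 with RLE size factors, 0.0031 with a mean CPM above 1, 0.0036 with upper-quartile size factors and 0.0060 with no filter. Sirt5 for diet turned to 0.0052 with DESeq2 and 0.0016 with the exact test. Sirt4 for the interaction turned to 0.026 with DESeq2, 0.031 with the quasi-likelihood test and 0.027 with no quality weights. Sirt2 for NAMPT in LKO turned to -0.0042 with upper-quartile size factors. With 1 library left out, ranges that crossed 0 were -0.0096 to 0.049 (Sirt2, NAMPT in LKO), -0.069 to 0.19 (Sirt4, LKO against WT with NAMPT), -0.031 to 0.027 (Sirt2), -0.069 to 0.080 (Sirt3) and -0.098 to 0.073 (Sirt7) for LKO against WT with EV, -0.074 to 0.11 (Sirt2), -0.11 to 0.088 (Sirt4) and -0.073 to 0.015 (Sirt5) for diet, and -0.087 to 0.20 (Nampt) and -0.23 to 0.028 (Sirt4) for the interaction.

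Replicate numbers name separate mice in each group. Correlations of same-numbered deviations ran from -0.38 to 0.42, over 2 to 5 pairs per comparison. So few pairs cannot decide whether same-numbered mice shared a batch. The replicate block gave 884 calls for NAMPT in WT and 412 for LKO against WT with NAMPT, and 66 for the interaction. It reversed Sirt2 (0.030) and Sirt7 (0.16) for LKO against WT with EV and Sirt3 (-0.0025) and Sirt4 (-0.24) for diet.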
